A study of Mus musculus with 8 samples.

Results

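The comparison asked which genes differ between mouse embryonic stem (ES) cells labelled as *Zbtb24* knockout (KO, 1lox/1lox) and as wild type (WT, 2lox/+), and which functions and pathways those genes belong to. It rests on the 4 of 8 libraries of the ultra-low input experiment that were made from 1000 cells, 2 labelled KO and 2 labelled WT. The count table held 43309 genes, and the 15764 that reached 10 counts in any of these 4 libraries were tested. All cells were ES cells of strain J1 (129SV), kept in serum medium on gelatin with no feeder layer. They were lysed without RNA extraction, and cDNA from 1000 cells (about 10 ng of RNA) was made with the SMARTer Ultra Low RNA Kit, which copies polyadenylated RNA, amplified by 10 cycles of PCR and converted into Nextera libraries. The study's methods describe independently derived ES cell lines of each genotype as biological replicates, but which line each library came from was not given. So n = 2 refers to labelled libraries, and p-values measure only the spread between them.

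ZBTB24 is a zinc finger protein that binds DNA and acts as a transcription factor. Inherited loss of ZBTB24, DNMT3B, CDCA7 or HELLS causes ICF syndrome, an immunodeficiency in which repeats near the centromeres lose DNA methylation. DNMT3B places new methyl groups on DNA, and CDCA7 recruits the nucleosome remodeller HELLS. ES cells are pluripotent cells of the early embryo that renew themselves under LIF and move towards differentiation under FGF signalling.

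The targeted gene was examined first. *Zbtb24* (chromosome 10) stood at 14.2 and 16.6 cpm in labelled WT and 41.3 and 38.1 cpm in labelled KO, where cpm is the usual depth-normalised count, with library sizes scaled by the trimmed mean of M values (TMM). Both labelled KO libraries were higher, by 1.37 ± 0.11 on the log2 scale (edgeR quasi-likelihood test with Benjamini-Hochberg adjustment, adjusted p = 1.05e-09). A gene count sums all exons and does not show whether an exon was lost, so it cannot test the labels. The count of *Zbtb24* did not fall in labelled KO. The groups are therefore called labelled KO and labelled WT, higher and lower mean labelled KO relative to labelled WT, and paired library values are those of replicates 1 and 2. Log2 ratios are given with their standard error (SE) from the same fit, as in 1.37 ± 0.11, and a gene was called, and is said to have risen or fallen, at an adjusted p of at most 0.05. Values in brackets after a gene are its log2 ratio ± SE.

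Total counts ran from 11752860 to 16686525. Spearman's coefficient across genes was 0.990 within labelled WT, 0.993 within labelled KO and 0.969 to 0.972 between them. In all, 6941 of the tested genes (44.0%) passed the threshold, 3522 of them higher (22.3%) and 3419 lower (21.7%). Called log2 ratios had a median size of 0.59, and 695 higher and 901 lower genes passed a log2 ratio of 1. The split between higher and lower depended on scaling. With library size alone in place of TMM, 2757 genes were higher and 4244 lower, so that 39.4% of called genes were higher in place of 50.7%, and the median log2 ratio of all genes moved from −0.003 to −0.0915.

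2 stretches of the genome moved as blocks and are treated apart. Among genes that averaged 10 cpm or more, the 508 on chromosome 1 had a median log2 ratio of 0.55 (1.46-fold), with 78.3% called higher. The 141 in the first 60 Mb of chromosome 8 had a median of −0.52, with 85.1% called lower, against −0.080 for the 327 genes of the rest of that chromosome. The medians of all other autosomes and of X lay between −0.065 and 0.10. Without both regions, 14434 genes were tested, of which 2990 (20.7%) were higher and 3205 (22.2%) lower. Groups of genes below are given with and without these regions where the balance of higher and lower genes turned, and in some other cases. Outside the regions, Wnt targets were higher in 4 of 24 and lower in 7. Translation factors were higher in 13 of 43 and lower in 15, and heat shock genes higher in 6 of 24 and lower in 7. The median of p53 and its targets moved from 0.0076 to −0.0033.

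Of 55 gene lists with 2170 members, 1950 members were tested. More members were higher than lower in 25 lists and more were lower in another 25. A list is described by its counts and its median log2 ratio, to be read beside 22.3% higher, 21.7% lower and a median of −0.003 over all genes. Among the 8317 genes that averaged 10 cpm or more, 30.7% were higher and 27.1% lower, with a median of 0.022. Lists made up mostly of such genes are to be read beside these shares. Among lists with at least 10 tested members, the bars of members called per list show the highest shares of higher genes in glycolysis, the integrated stress response, oxidative phosphorylation and cytosolic ribosomal proteins.

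**Figure D1:**
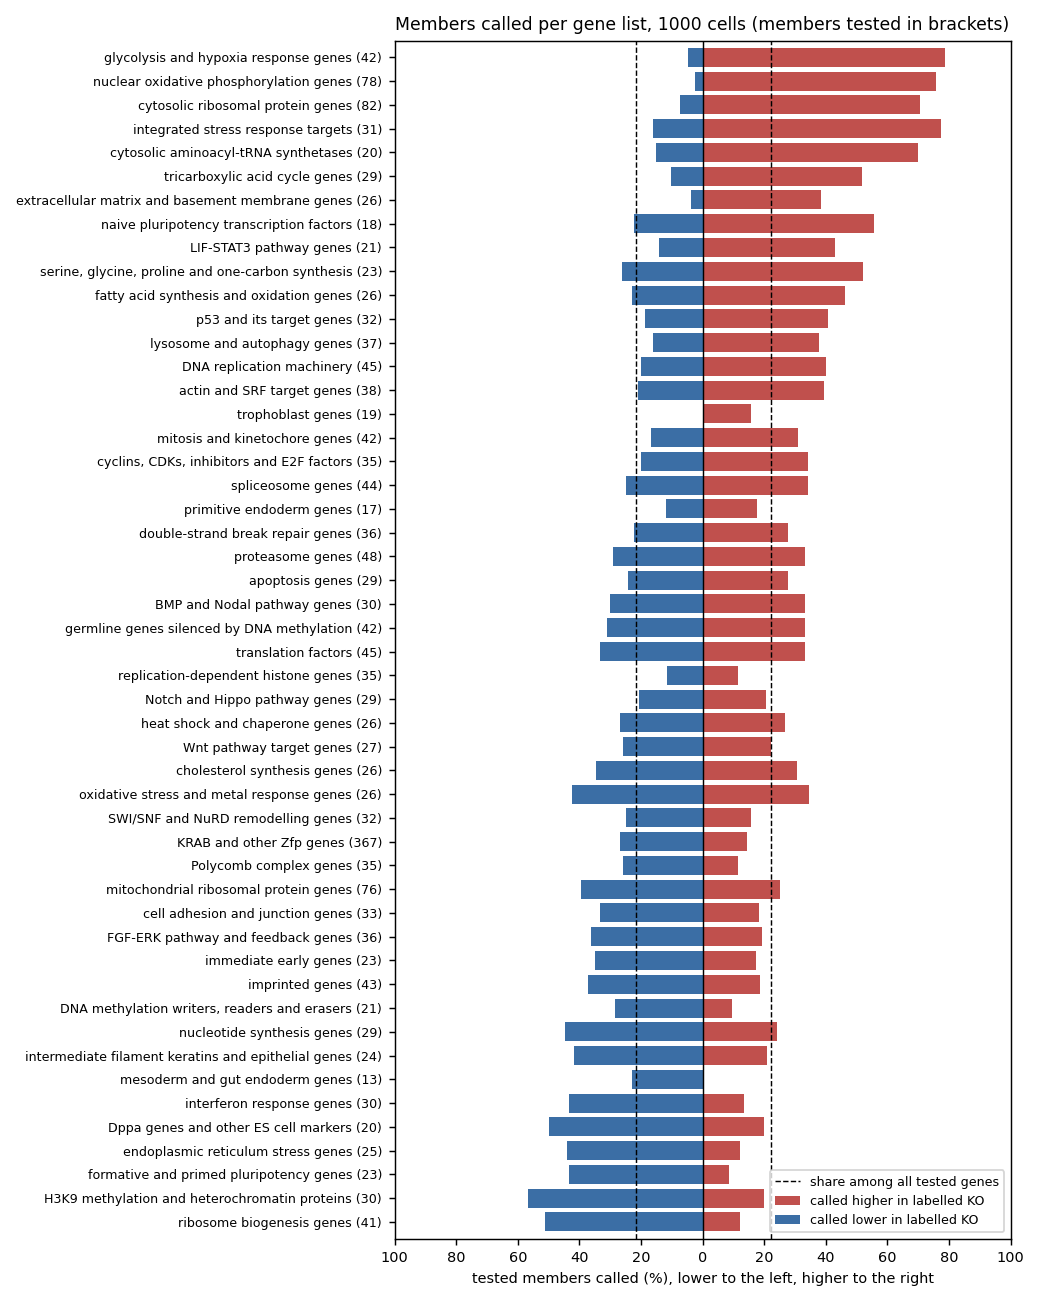
Percent of tested members called higher (red, right) or lower (blue, left) in labelled KO for each list with at least 10 tested members, with the number tested in brackets. The list of 2-cell embryo genes, with 9 of 11 called lower, is left out. Dashed lines mark the shares over all tested genes, 22.3% higher and 21.7% lower, and the top 4 lists reach 70.7% to 78.6% higher.

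Genes linked to ZBTB24 in earlier work were mostly lower. 6 of 8 were called lower and 0 higher, none of them lies in the excluded regions, and their median was −1.22. *Cdca7*, which encodes the ICF protein that recruits HELLS, stood at 164 and 162 cpm in labelled WT and 48.0 and 49.6 cpm in labelled KO (−1.74 ± 0.072). *Taf6*, a subunit of the general transcription factor TFIID, stood at 89.8 and 78.8 cpm in labelled WT and 28.5 and 25.1 cpm in labelled KO (−1.66 ± 0.093), and 26% of its exon sequence overlaps a gene on the other strand. *Ostc*, a subunit of the oligosaccharyltransferase that glycosylates nascent proteins, stood at 317 and 291 cpm in labelled WT and 129 and 123.4 cpm in labelled KO (−1.27 ± 0.065). For these 3 genes both labelled KO libraries were below both labelled WT libraries, with no overlap. The labels likewise did not overlap, in either direction, for 11276 of the 15764 tested genes (71.5%). *Cdc40*, a splicing factor, fell as well (−1.17 ± 0.10), as did the methyltransferase gene *Camkmt* (−0.90 ± 0.21) and the low-level Wnt feedback gene *Axin2* (−2.40 ± 0.54). *Rnf169* (0.046 ± 0.12) and *Arid4b* (−0.019 ± 0.071) were not called, and their libraries overlapped.

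The promoters of these genes were searched for CAGGACCT, the core of the published ZBTB24 motif, on both strands from 250 bases before to 50 bases after each RefSeq start. The letters were present in 4 of the 7 genes with an entry (57.1%), namely *Cdca7*, *Taf6*, *Cdc40* and *Camkmt*, against 2.3% of all 27025 symbols in the promoter table. Among all called genes the shares were 2.19% for higher and 2.31% for lower genes. The list was drawn from genes already linked to ZBTB24, so the share of 57.1% says nothing of these libraries alone. The 3 windows shown are those of called genes of this list with the letters that averaged 10 cpm or more, each in the gene's own direction, with capitals for the motif, which in *Taf6* and *Cdc40* is its reverse complement.
Cdca7 (GRCm38.p6 chr2:72476119-72476148, plus strand): atcttagctggCAGGACCTgcgtcccggcg
Taf6 (GRCm38.p6 chr5:138187388-138187417, minus strand): gcgccttctgaAGGTCCTGacagctgggta
Cdc40 (GRCm38.p6 chr10:40883286-40883315, minus strand): tttaatcaacgAGGTCCTGaaagttacaaa
Relative to the annotated start, the match began at position −89 in *Cdca7*, −180 in *Taf6*, with another copy at −14, and −161 in *Cdc40*. The windows shown for *Taf6* and *Cdc40* overlap an annotated exon of the gene itself. A match of letters is a description and was not tested as a binding site.

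Among the machinery of DNA methylation, the enzymes that write new methylation fell and the maintenance proteins were not called. *Dnmt3b* stood at 184 and 205 cpm in labelled WT and 45.3 and 41.6 cpm in labelled KO, a 4.48-fold fall (−2.16 ± 0.078, edgeR quasi-likelihood adjusted p = 1.42e-15 with Benjamini-Hochberg adjustment). Both labelled KO libraries lay below both labelled WT libraries by far more than the spread within either pair. The second writer, *Dnmt3a*, fell (−1.003 ± 0.069), and so did *Dnmt3l* (−1.40 ± 0.067), the cofactor that stimulates both. *Mbd3*, a NuRD subunit of the methyl-CpG-binding family, fell by a similar amount to *Dnmt3a* (−1.10 ± 0.091), and *Tet1*, which oxidises 5-methylcytosine, fell less (−0.43 ± 0.060). *Dnmt1* (−0.14 ± 0.071) and its partner *Uhrf1* (−0.025 ± 0.068), which copy methylation at replication, were not called, nor was *Tet2* (0.038 ± 0.065), although *Dnmt1* was called lower with library size alone (−0.23). In all, 6 of 21 genes of the list were lower and 2 higher, *Mbd4* and *Gadd45a*, both linked to the repair of methylated or deaminated bases, and without WT replicate 2 the higher count was 5. Of the 4 ICF genes, *Dnmt3b*, *Cdca7* and *Hells* (−0.26 ± 0.058) were lower and *Zbtb24* higher.

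Genes that DNA methylation is known to silence did not move in a single direction. Of 42 germline genes, 14 were higher and 13 lower, and library size alone turned this to 12 and 14. Outside the regions 14 were higher and 11 lower, and without WT replicate 1 only 8 of the 42 were lower. *Smc1b*, a meiotic cohesin subunit, stood at 32.3 and 32.1 cpm in labelled WT and 83.3 and 88.2 cpm in labelled KO (1.41 ± 0.083). The germ cell transcription factor gene *Sohlh2* (1.23 ± 0.10), the meiotic regulator *Meioc* (1.17 ± 0.10) and the cohesin gene *Stag3* (1.01 ± 0.11) rose as well. *Fkbp6*, required in meiosis and the piRNA pathway, fell from 14.3 and 15.6 to 2.35 and 2.58 cpm (−2.59 ± 0.19). *Tex15* fell to a lesser degree (−1.75 ± 0.10), and it lies in the excluded stretch of chromosome 8. *Dazl*, a classical germline marker of methylation loss, was not called (−0.065 ± 0.10), and its libraries overlapped.

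Of the 32 X-linked *Rhox* homeobox genes only 7 passed the count filter, 4 lower and 2 higher (1 without KO replicate 2). *Rhox5*, the founding member of the cluster, stood at 178 and 189 cpm in labelled WT and 30.8 and 25.4 cpm in labelled KO, a 6.54-fold fall. *Rhox6* (−2.04 ± 0.16) and *Rhox9* (−1.95 ± 0.20) fell as well. Imprinted genes, which are expressed from the chromosome of a single parent, were lower more often than higher, with 16 of 43 tested lower, 8 higher and a median of −0.29. The lower count was 10 by DESeq2. The maternally expressed non-coding RNAs of the *Dlk1*-*Meg3* region of chromosome 12 were lower. *Meg3* stood at 63.0 and 72.5 cpm in labelled WT and 16.7 and 19.2 cpm in labelled KO (−1.91 ± 0.10), and *Rian* (−1.29 ± 0.090) and, at a low level, *Mirg* (−1.68 ± 0.27) fell as well. The paternally expressed genes *Mest* (−0.96 ± 0.074) and *Peg3* (−0.51 ± 0.067) also fell. Among the 24 that averaged 10 cpm or more, the largest rise was that of the tetraspanin gene *Cd81* (0.99 ± 0.060), which is imprinted in the placenta.

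Genes of histone H3 lysine 9 methylation and heterochromatin were lower in 17 of 30 and higher in 6, with a median of −0.22 (−0.31 with library size alone). The list holds demethylases and histone H3.3 genes as well as proteins that place this mark or bind heterochromatin. *Ehmt2*, the main dimethyltransferase for this mark in euchromatin, stood at 58.4 and 57.4 cpm in labelled WT and 34.6 and 30.6 cpm in labelled KO (−0.83 ± 0.090), and its partner *Ehmt1* fell less (−0.44 ± 0.078). The remodeller *Atrx* (−0.72 ± 0.065), the histone chaperone gene *Chaf1a* (−0.81 ± 0.13, 49.7% of exon windows shared) and *Zfp809*, which targets a class of retroviral repeats for silencing (−0.98 ± 0.10), fell. *Suv39h1*, which trimethylates pericentric heterochromatin, rose (0.89 ± 0.11), while *Trim28* (−0.13 ± 0.053) and *Setdb1* (−0.057 ± 0.078), the common silencing complex of KRAB zinc finger proteins, were not called, although *Trim28* was called lower in 5 alternatives, among them library size alone (−0.21). Of 35 Polycomb genes 9 were lower and 4 higher (13 and 2 with library size alone, 6 and 2 by DESeq2). *Epop*, an accessory protein of Polycomb repressive complex 2, stood at 92.7 and 88.3 cpm in labelled WT and 26.1 and 22.5 cpm in labelled KO (−1.90 ± 0.090), and *L3mbtl2*, of a variant complex 1, fell by 1.09 on the log2 scale. The catalytic subunit gene *Ezh2* was slightly higher (0.18 ± 0.067), a call lost without WT replicate 1 (0.12) or KO replicate 2 (0.14). In the SWI/SNF and NuRD list, 8 of 32 were lower and 5 higher (3 without KO replicate 1), among them the ATPase genes *Smarca4* (−0.43 ± 0.074) and *Chd4* (−0.45 ± 0.067), both lower. Of 35 tested replication-dependent histone genes 4 were higher and 4 lower (2 higher without either KO library, 2 lower without WT replicate 2), and most of these mRNAs lack the poly(A) tail from which the kit primes. The 367 tested *Zfp* genes were lower in 99 cases and higher in 53 (27 by DESeq2, 34 with library size alone and 34 without KO replicate 2), and among the 227 that averaged 10 cpm or more the largest falls were those of *Zfp428* (−1.66 ± 0.12), *Zfp981* (−1.28 ± 0.072, 40.0% of exon windows shared) and *Zfp131* (−1.26 ± 0.10).

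Genes of the 2-cell embryo, which rare ES cells switch on for a short time, came from a single library. *Zscan4f*, which encodes a telomere regulator of that stage, had 4 and 365 counts in labelled WT and 1 and 0 in labelled KO. *Zscan4d* had 3 and 300 in labelled WT and 6 and 0 in labelled KO. Of 11 tested genes 9 were called lower, but without WT replicate 2 none was, and DESeq2 called 1. Other transcripts share 86.8% of the 50-base exon windows of *Zscan4f* and 49.6% of those of *Zscan4d*. The study dropped fragments that matched several genes or genomic places, so these counts may miss reads from the shared sequence.

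**Figure D2:**
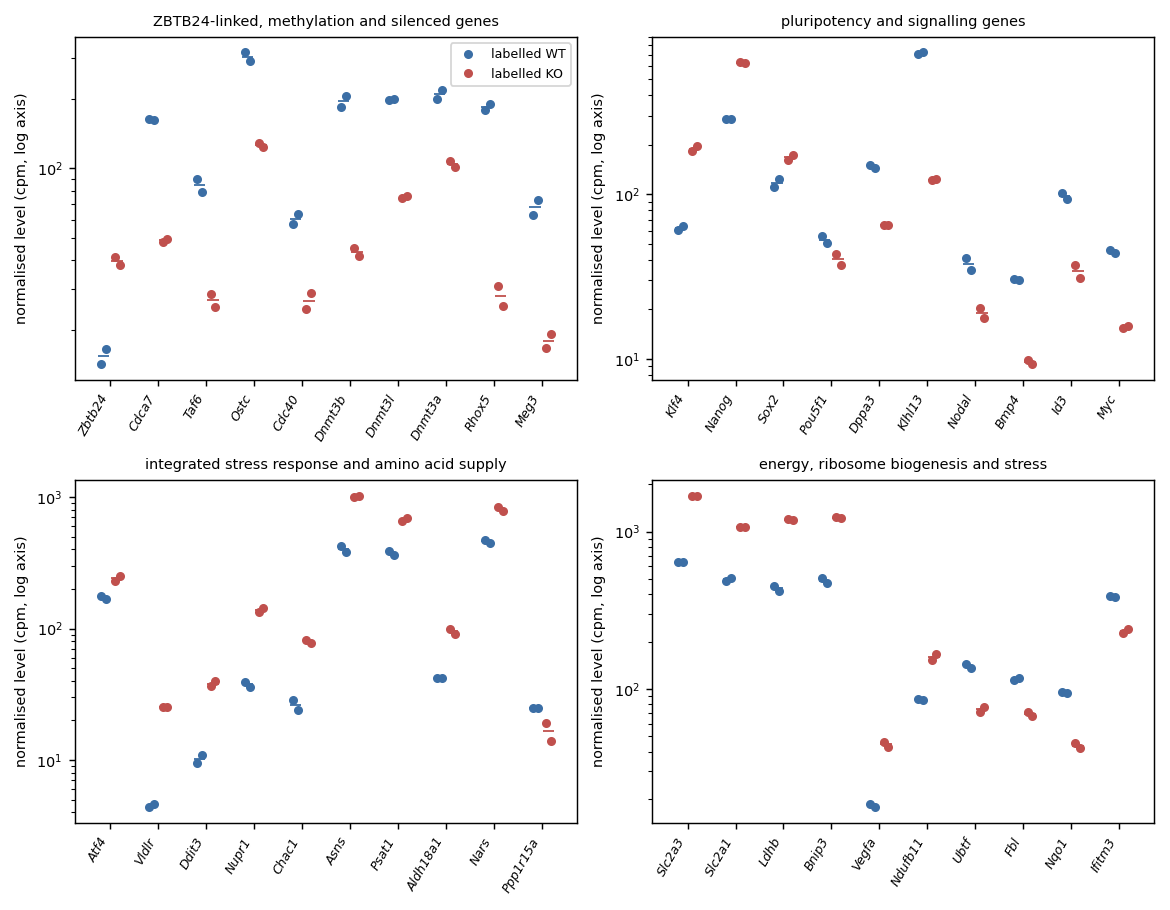
Normalised level (cpm, log axis) of 40 genes in each library of 1000 cells, with 2 labelled WT libraries in blue, 2 labelled KO libraries in red and a line at each mean. The libraries of a label lie close together for most genes, and *Dnmt3b*, *Klhl13*, *Vldlr* and *Slc2a3* show gaps between the labels of more than 2-fold.

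The naive pluripotency factors shifted unevenly. 10 of 18 were higher and 4 lower, or 7 and 3 of 13 outside the regions. *Klf4*, a LIF target, stood at 60.9 and 63.9 cpm in labelled WT and 182 and 195 cpm in labelled KO (1.60 ± 0.071). *Nanog* stood at 287 and 285 cpm in labelled WT and 630.2 and 621 cpm in labelled KO (1.13 ± 0.056). In both genes the labelled KO libraries lay above the labelled WT libraries with no overlap, which held in either direction for 71.5% of tested genes. *Tfcp2l1* (0.92 ± 0.078, on chromosome 1), *Esrrb* (0.53 ± 0.069) and *Sox2* (0.51 ± 0.070) rose. *Pou5f1*, the core factor OCT4, was lower (−0.40 ± 0.093), as were *Nr0b1* (−1.02 ± 0.078), *Sall4* (−0.33 ± 0.064) and *Zfp42* (−0.26 ± 0.057). Other markers of ES cells were lower in 10 of 20 and higher in 4, with *Dppa3* (−1.18 ± 0.071), *L1td1* (−0.94 ± 0.060), *Dppa4* (−0.62 ± 0.063) and *Dppa2* (−0.68 ± 0.066) among those that fell.

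Genes of the formative and primed states, which follow naive pluripotency, were lower in 10 of 23 and higher in 2, with a median of −0.36. The 2 higher calls rested on all libraries, since 0 were higher without WT replicate 1 and 1 without any other. *Nodal* stood at 40.9 and 34.7 cpm in labelled WT and 20.3 and 17.7 cpm in labelled KO (−0.999 ± 0.11), and *Dnmt3a* and *Dnmt3b* belong to this list too. *Otx2* (−0.23 ± 0.11) and *Lef1* (−0.19 ± 0.11) were not called, but both were called lower with library size alone (−0.32 and −0.28), *Otx2* also without KO replicate 1 (−0.35) and *Lef1* without WT replicate 1 (−0.34). Of the LIF and STAT3 genes 9 of 21 were higher and 3 lower (5 without KO replicate 1). The feedback inhibitor *Socs3* (0.68 ± 0.11) and the kinase gene *Pim1* (0.95 ± 0.11) rose, *Socs2* (−0.55 ± 0.085) and the phosphatase gene *Ptpn11* (−0.73 ± 0.092) fell, and the receptor gene *Lifr* was not called (−0.036 ± 0.085).

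In the FGF and ERK list 13 of 36 were lower and 7 higher (4 without WT replicate 1). *Klhl13*, an X-linked ubiquitin ligase adaptor, stood at 708 and 725 cpm in labelled WT and 122 and 122.9 cpm in labelled KO and fell 5.84-fold. The receptor gene *Fgfr1* (−0.95 ± 0.11, in the excluded stretch of chromosome 8), the ERK target *Etv4* (−0.98 ± 0.10) and the ERK phosphatase gene *Dusp6* (−0.68 ± 0.094) were lower. The ligand gene *Fgf4* was higher (0.32 ± 0.066) and the feedback gene *Spry4* was not called (−0.10 ± 0.074, or −0.19 and called lower with library size alone). The BMP and Nodal list was split, 10 of 30 higher and 9 lower, which became 7 and 8 outside the regions and 9 and 10 with library size alone. Within it the ligand gene *Bmp4* stood at 30.3 and 30.2 cpm in labelled WT and 9.81 and 9.29 cpm in labelled KO (−1.67 ± 0.12). The BMP target genes *Id3* (−1.52 ± 0.091) and *Id1* (−1.03 ± 0.11) fell, and the Nodal inhibitor gene *Lefty1*, on chromosome 1, rose (0.53 ± 0.084). Wnt targets (6 of 27 higher, 7 lower, or 3 lower without KO replicate 1) and Notch and Hippo genes (6 of 29 in each direction) had no common direction, although *Hes1* rose (1.18 ± 0.10), *Wwtr1* rose (1.02 ± 0.11) and the YAP target *Ccn2* fell (−1.51 ± 0.17). *Myc* stood at 45.8 and 44.2 cpm in labelled WT and 15.4 and 15.9 cpm in labelled KO and fell 2.88-fold. It is 1 of 8 lower members among 23 immediate early genes (5 without KO replicate 2), where 4 were higher. Outside the regions 8 of 20 were lower and 2 higher, and the median moved from 0.087 to −0.15. *Fos* was higher at a low level (1.34 ± 0.19).

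The integrated stress response showed the largest median of all lists with at least 20 tested members. In this response, kinases that sense amino acid shortage, unfolded protein or other stress phosphorylate eIF2, which raises translation of the transcription factor ATF4 and thereby of its targets in amino acid uptake and synthesis. 24 of 31 targets were higher and 5 lower, with a median of 0.82, and outside the regions 23 of 29 were higher with the same median. *Atf4* itself stood at 177 and 167 cpm in labelled WT and 232 and 251 cpm in labelled KO (0.49 ± 0.064). *Asns*, which makes asparagine, stood at 422 and 380.0 cpm in labelled WT and 1001 and 1027 cpm in labelled KO (1.34 ± 0.059). *Vldlr*, a lipoprotein receptor, stood at 4.37 and 4.62 cpm in labelled WT and 25.5 and 25.2 cpm in labelled KO and rose 5.65-fold. In each of these 3 genes both labelled KO libraries were above both labelled WT libraries, and 71.5% of tested genes had no overlap in either direction. *Ddit3*, which encodes the pro-apoptotic factor CHOP, stood at 9.55 and 10.98 cpm in labelled WT and 36.3 and 39.7 cpm in labelled KO (1.90 ± 0.12). *Nupr1* (1.88 ± 0.079), the glutathione-degrading *Chac1* (1.58 ± 0.093), *Pck2* (1.495 ± 0.14), *Trib3* (0.90 ± 0.10) and, at low levels, *Atf3* (2.41 ± 0.22) and *Jdp2* (1.80 ± 0.24) rose. The 5 lower targets were *Cbs* (−0.60 ± 0.14), *Ppp1r15a* (−0.59 ± 0.13), which encodes the phosphatase subunit that ends the response, *Slc38a2* (−0.44 ± 0.059), *Eif4ebp1* (−0.33 ± 0.053) and *Slc7a11* (−0.50 ± 0.20). The call of *Slc7a11* was lost when any single library was left out, at ratios of −0.40 to −0.61.

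Promoters of the targets were searched for TGATGNAA, the composite site bound by ATF4 with a C/EBP partner, in the same windows. It was present in 12 of 27 targets with an entry (44.4%), against 4.51% of all symbols, 3.3% of genes called higher and 2.43% of genes called lower. The list was drawn from known ATF4 targets, so this share says nothing of these libraries alone. The 3 windows shown belong to strongly changed targets, with the site or its reverse complement in capitals. Each of them overlaps an annotated exon of its own gene.
Asns (GRCm38.p6 chr6:7693214-7693243, minus strand): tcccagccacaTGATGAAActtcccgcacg
Nupr1 (GRCm38.p6 chr7:126625562-126625591, minus strand): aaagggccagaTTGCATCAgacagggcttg
Vldlr (GRCm38.p6 chr19:27216809-27216838, plus strand): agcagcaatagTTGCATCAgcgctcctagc
The letters also occur in the windows of *Atf3*, *Chac1*, *Trib3*, *Jdp2* and *Pck2*, which rose, and of *Slc7a11*, whose call rested on all 4 libraries.

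Enzymes that supply amino acids and charge tRNAs were more often higher than lower. Of 23 genes of serine, glycine, proline and folate-dependent carbon metabolism, 12 were higher and 6 lower, with a median of 0.33. *Aldh18a1*, which starts proline synthesis, stood at 41.9 and 42.2 cpm in labelled WT and 99.8 and 91.6 cpm in labelled KO (1.19 ± 0.080), and *Pycr1*, which completes it, rose by 1.05. *Psat1* (0.83 ± 0.058) and *Phgdh* (0.35 ± 0.073), of serine synthesis, rose as well. *Mat2a* (−0.76 ± 0.055) and *Ahcy* (−0.99 ± 0.070), which make S-adenosylmethionine and clear its product, fell. Other transcripts share 68.7% of the exon windows of *Ahcy* and 47.8% of those of *Phgdh*. Of 20 cytosolic aminoacyl-tRNA synthetases 14 were higher and 3 lower (11 and 3 of 17 outside the regions). *Nars* (0.82 ± 0.057), *Cars* (0.71 ± 0.071) and *Gars* (0.71 ± 0.058) were among the higher genes, and *Farsa* (−0.40 ± 0.090), *Vars* (−0.36 ± 0.092) and *Hars* (−0.26 ± 0.071) were the lower ones, the last 2 of which lost their call without KO replicate 2, at −0.17 and −0.18. By DESeq2 *Farsa* and *Vars* lost theirs, and 1 synthetase gene was lower.

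Other stress programs did not share that direction. Endoplasmic reticulum stress genes were lower in 11 of 25 and higher in 3. *Xbp1*, the factor of the IRE1 branch, stood at 225 and 221 cpm in labelled WT and 170.2 and 163 cpm in labelled KO (−0.42 ± 0.062), the chaperone genes *Calr* (−0.41 ± 0.060) and *Dnajb11* (−0.58 ± 0.074) fell, and *Hspa5*, which encodes the chaperone BiP, was not called (0.077 ± 0.060), except as higher without KO replicate 1 (0.17). Heat shock and chaperone genes were called in equal numbers, 7 of 26 in each direction, or 3 higher and 12 lower with library size alone and 4 higher without WT replicate 2, and *Hspb1* (−1.05 ± 0.071), of which 50% of exon windows occur elsewhere, and *Hsph1* (−0.83 ± 0.065) fell. Of 26 genes of the oxidative stress and metal response 9 were higher and 11 lower. The metallothionein genes *Mt1* (0.69 ± 0.055) and *Mt2* (0.61 ± 0.064, 45.9% of exon windows shared) rose. *Nqo1*, a standard target of NRF2, stood at 96.4 and 94.1 cpm in labelled WT and 45.2 and 42.1 cpm in labelled KO (−1.13 ± 0.079), while *Nfe2l2*, the gene of NRF2 itself, was higher (0.48 ± 0.071). Interferon response genes were lower in 13 of 30 (8 by DESeq2 and 8 without WT replicate 1) and higher in 4 (2 without WT replicate 2 or KO replicate 2), with a median of −0.35. *Ifitm3* stood at 392 and 383 cpm in labelled WT and 226 and 239 cpm in labelled KO (−0.74 ± 0.059), and the RNA sensor gene *Ddx58* (−1.14 ± 0.10), the factor gene *Irf1* (−0.99 ± 0.090) and *Bst2* (−0.75 ± 0.086) fell, whereas *B2m* rose (0.87 ± 0.11).

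Glycolysis and hypoxia response genes were mostly higher. 33 of 42 genes were higher and 2 lower, with a median of 0.59, and 33 of 41 were higher outside the regions. *Slc2a3*, a glucose transporter, stood at 638 and 637 cpm in labelled WT and 1690.5 and 1693 cpm in labelled KO (1.41 ± 0.052), and *Slc2a1*, the widespread transporter of the same family, rose 2.14-fold (1.10 ± 0.054). *Ldhb*, of lactate dehydrogenase, stood at 453 and 418 cpm in labelled WT and 1204 and 1179 cpm in labelled KO (1.45 ± 0.057), and *Ldha* rose by 0.55. For both genes the labelled KO libraries lay close together and far above labelled WT. Enzymes of the trunk of glycolysis rose less, with *Hk2* at 0.57 ± 0.061, *Gapdh* at 0.47 ± 0.047, *Pgk1* at 0.57 ± 0.054 (53.9% of exon windows shared) and *Eno1* at 0.36 ± 0.053, and *Pkm* was not called (0.15 ± 0.072), but was called higher without KO replicate 2 (0.31). *Eno1* lost its call in the fit of all 8 libraries. Targets of hypoxia-inducible factor included the mitophagy receptor gene *Bnip3* (1.33 ± 0.055, 47% of exon windows shared), the growth factor gene *Vegfa* (1.28 ± 0.10) and the hydroxylase gene *Egln3* (1.17 ± 0.11). *Hif1a* was not called (0.071 ± 0.072) and *Epas1* was lower (−0.80 ± 0.12), which, with *Ankrd37* (−0.74 ± 0.10, in the excluded stretch of chromosome 8), made up the lower genes.

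Nuclear genes of oxidative phosphorylation were higher in 59 of 78 and lower in 2, and outside the regions in 53 of 72 and 2. The changes were small, with a median of 0.35. *Ndufb11*, a subunit of complex I encoded on X, stood at 86.4 and 84.6 cpm in labelled WT and 153 and 166 cpm in labelled KO (0.90 ± 0.070). *Uqcrb* (0.75 ± 0.060) of complex III and *Atp5j* (0.60 ± 0.058) of ATP synthase rose, and *Cox5b* had the largest ratio (1.30 ± 0.065), on chromosome 1. *Atp5d* (−0.24 ± 0.063) and *Cyc1* (−0.20 ± 0.066) were the lower genes, and *Cox4i1* was not called (−0.031 ± 0.055). *Cyc1* lost its call without WT replicate 1 (−0.12) or KO replicate 2 (−0.11), while 4 genes were lower without KO replicate 1. *Ndufa4l2*, a hypoxia-induced relative of a complex IV subunit, rose far more, to 52.3 and 55.0 cpm in labelled KO from 12.7 and 12.4 in labelled WT. In the tricarboxylic acid cycle list 15 of 29 were higher and 3 lower, and its median fell from 0.20 to 0.083 outside the regions, and *Sdhc*, *Fh1* and *Idh1* are among its members on chromosome 1.

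Lipid and nucleotide pathways were mixed. Of 26 cholesterol genes 8 were higher and 9 lower. *Hmgcs1* (−0.89 ± 0.062) and *Ebp* (−0.72 ± 0.086), which encode enzymes of the pathway, fell. Among fatty acid genes, the oxidation genes *Cpt2* (0.99 ± 0.11), *Eci2* (0.90 ± 0.093) and *Cpt1a* (0.76 ± 0.11) were higher and the synthesis genes *Fasn* (−0.44 ± 0.062) and *Acaca* (−0.40 ± 0.078) lower. The list as a whole had 12 of 26 higher and 6 lower (3 without WT replicate 1 or KO replicate 2). Nucleotide synthesis genes were lower in 13 of 29 and higher in 7, with *Dut* (−0.67 ± 0.062) and *Impdh1* (−0.69 ± 0.12) lower and *Hprt* (0.56 ± 0.055) higher. Lysosome and autophagy genes were higher in 14 of 37 and lower in 6, or 10 and 9 with library size alone. *Lamp2*, a membrane protein of the lysosome encoded on X, stood at 50.7 and 45.1 cpm in labelled WT and 122.8 and 130.5 cpm in labelled KO (1.40 ± 0.079), and its relative *Lamp1*, in the excluded stretch of chromosome 8, fell (−0.97 ± 0.061).

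**Figure D3:**
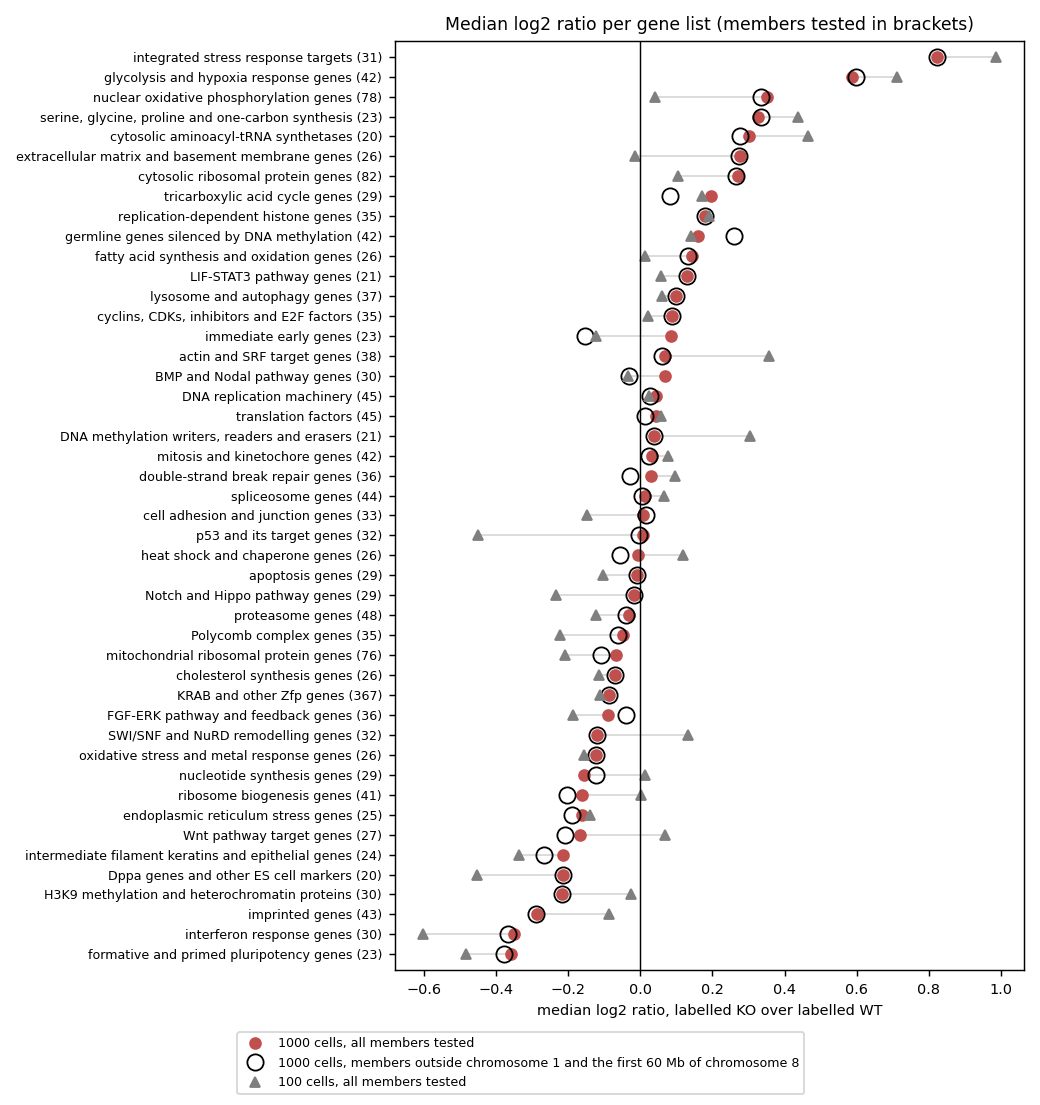
Median log2 ratio of labelled KO over labelled WT for each list with at least 20 tested members, as filled circles for all members, open circles for members outside chromosome 1 and the first 60 Mb of chromosome 8, and triangles for the libraries of 100 cells. Open and filled circles nearly coincide for most lists, and the triangle of the nuclear oxidative phosphorylation genes lies at 0.042 against 0.35 at 1000 cells.

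Cytosolic ribosomal protein genes were mostly higher, while ribosome biogenesis genes were more often lower than higher. Cytosolic ribosomal protein genes were higher in 58 of 82 and lower in 6 (55 and 6 of 79 outside the regions, 49 and 9 with library size alone), with a median of 0.27. *Rps26* stood at 721 and 746 cpm in labelled WT and 1023 and 1149 cpm in labelled KO (0.57 ± 0.058), and *Rps24* rose by 0.57. *Rplp0* was lower (−0.26 ± 0.048), as were the tissue-restricted copies *Rpl10l* (−0.90 ± 0.11) and *Rpl39l* (−0.87 ± 0.11). Many of these genes have processed copies elsewhere in the genome, which makes their counts uncertain. Ribosome biogenesis genes were lower in 21 of 41 and higher in 5 (2 without WT replicate 2), and outside the regions lower in 21 of 38 and higher in 4. *Ubtf*, the factor that keeps ribosomal DNA open for RNA polymerase I, stood at 143 and 136 cpm in labelled WT and 71.6 and 77.4 cpm in labelled KO (−0.91 ± 0.072). *Fbl*, the methyltransferase of box C/D snoRNPs, stood at 113 and 117 cpm in labelled WT and 71.7 and 67.8 cpm in labelled KO (−0.72 ± 0.072). The processome genes *Utp3* (−1.02 ± 0.072), *Rrp9* (−0.95 ± 0.083) and *Bysl* (−0.88 ± 0.086) fell, *Polr1a* fell less (−0.43 ± 0.078) and *Ncl* was not called (0.022 ± 0.049). Mitochondrial ribosomal protein genes were lower in 30 of 76 and higher in 19.

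The remaining machinery of expression was split. Translation factors were called in equal numbers (15 of 45 in each direction, or 9 higher and 19 lower with library size alone, and 9 lower without WT replicate 1). *Eif4g1*, the scaffold of cap-dependent initiation, fell (−0.64 ± 0.061). Of 44 spliceosome genes 15 were higher and 11 lower, which turned to 11 and 18 with library size alone. *Snrnp70* (−0.81 ± 0.073) and *Prpf31* (−0.91 ± 0.078) fell, and *Sf3b1*, on chromosome 1, rose (0.95 ± 0.053). Proteasome genes (16 of 48 higher, 14 lower) turned as well, to 12 and 21, and the immunoproteasome gene *Psmb10* fell (−0.59 ± 0.069).

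Cell cycle genes were higher somewhat more often than lower, but the balance of 3 of these 4 lists turned with library size alone. In the order below, 40.0%, 34.3%, 31.0% and 27.8% of their members were higher, beside 30.7% of all genes that averaged 10 cpm or more. DNA replication genes were higher in 18 of 45 and lower in 9 (16 and 12 with library size alone, and 5 lower without WT replicate 1). *Orc4*, of the origin recognition complex, stood at 116 and 122 cpm in labelled WT and 210.3 and 219 cpm in labelled KO (0.86 ± 0.065), *Rfc4*, of the clamp loader, rose (0.65 ± 0.068), and *Mcm2* was not called (−0.0080 ± 0.069). Cyclins and their regulators had 12 of 35 higher and 7 lower (5 and 8, or 3 lower without KO replicate 2), mitosis and kinetochore genes 13 of 42 and 7 (10 and 15), and double-strand break repair genes 10 of 36 and 8 (7 and 11, or 6 and 7 of 30 outside the regions). The securin gene *Pttg1* rose (0.74 ± 0.072) and the centromere protein gene *Cenpb* fell (−1.31 ± 0.17). *H2afx*, whose product marks DNA breaks, and *Brca2* fell (−0.88 ± 0.071 and −0.62 ± 0.065). Of 32 genes of p53 and its targets 13 were higher and 6 lower (9 and 7 with library size alone), with a median near 0. *Trp53* was higher (0.29 ± 0.053), and *Perp* (0.90 ± 0.11) and *Pmaip1* (0.67 ± 0.085) rose. *Bax* (−0.85 ± 0.063) and *Aen* (−0.88 ± 0.089) were lower. Apoptosis genes had 8 of 29 higher and 7 lower (7 and 10 with library size alone), with *Casp6* (1.15 ± 0.13) higher and *Bcl2l1* (−0.92 ± 0.14) lower.

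Genes of the cell surface and cytoskeleton showed a few large changes. Extracellular matrix genes were higher in 10 of 26 tested and lower in 1 (8 and 1 of 21 outside the regions). *Fbln1* stood at 19.3 and 18.98 cpm in labelled WT and 37.6 and 32.3 cpm in labelled KO (0.86 ± 0.11), *Fn1*, on chromosome 1, rose (0.84 ± 0.058) and *Lama5* fell (−0.88 ± 0.13). Adhesion and junction genes were lower in 11 of 33 and higher in 6 (3 without WT replicate 1). *Gja1*, the gap junction protein connexin 43, stood at 126 and 124 cpm in labelled WT and 41.6 and 33.2 cpm in labelled KO (−1.75 ± 0.089), *Epcam* fell (−0.51 ± 0.066) and *Cdh1*, which encodes E-cadherin, was not called (0.0055 ± 0.066). Of 38 actin and SRF targets 15 were higher and 8 lower. *Anxa2*, an actin-binding annexin, stood at 99.0 and 90.3 cpm in labelled WT and 242 and 233 cpm in labelled KO (1.32 ± 0.068), and *Vim*, of the intermediate filament vimentin, rose 1.98-fold. Keratin and epithelial genes were lower in 10 of 24 and higher in 5 (3 without WT replicate 2). *Krt42* (−1.27 ± 0.095) and the splicing regulator *Esrp1* (−1.62 ± 0.14) fell, and *Krt19* (1.75 ± 0.14) and *Elf3* (1.20 ± 0.091, on chromosome 1) rose. Markers of differentiated lineages were mostly low or not tested. Primitive endoderm genes had 3 of 17 higher and 2 lower (3 with library size alone), trophoblast genes 3 of 19 higher and 0 lower (2 without KO replicate 2), mesoderm and gut endoderm genes 0 of 13 higher and 3 lower (1 without KO replicate 2 and 0 by DESeq2), and only 3 of 39 Hox genes passed the filter, 1 called in each direction, the lower call lost without WT replicate 2 or KO replicate 1.

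Across all genes outside the regions, the 10 with the largest ratios in each direction were taken, provided that they averaged 10 cpm or more and their libraries did not overlap between labels. The largest rise was that of *A2m*, a secreted protease inhibitor, at 21.3 and 20.2 cpm in labelled WT and 145 and 154 cpm in labelled KO (2.85 ± 0.084). It was followed by *Vldlr*, the RNase P RNA gene *Rpph1* (2.16 ± 0.068) and *Gm47283* (2.11 ± 0.091, 40% of exon windows shared). Another gene overlaps 73% of the exon sequence of *Rpph1*, and other transcripts share 68% of its windows. Whether its reads came from *Rpph1* itself was not tested. Next came *Ndufa4l2* (2.095 ± 0.10), the mRNA export gene *Nxt2* (2.09 ± 0.084) and the arginine methyltransferase gene *Prmt8* (2.06 ± 0.16). The phosphoglucomutase gene *Pgm1* (2.02 ± 0.081), the endocytic receptor gene *Ly75* (1.96 ± 0.089) and *Ddit3* completed the 10. *Gm47283* is annotated at 90784738 to 90816464 of Y and is not among the 4 Y-linked genes read as markers. Whether its reads came from Y was not tested.

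The largest fall was that of the X-linked non-coding RNA *Gm26818*, at 38.2 and 30.3 cpm in labelled WT and 4.94 and 4.12 cpm in labelled KO (−2.93 ± 0.15). *Lgals9*, a secreted galectin, stood at 41.1 and 44.1 cpm in labelled WT and 6.28 and 6.36 cpm in labelled KO (−2.75 ± 0.12). *Rhox5*, *Klhl13*, the zona pellucida gene *Zp3* (−2.50 ± 0.15), the antisense RNA *4933427J07Rik* (−2.48 ± 0.10, 47% of windows shared), *Tmem40* (−2.47 ± 0.15), the X-linked deubiquitinase gene *Usp26* (−2.37 ± 0.14), *Gm21962* (−2.30 ± 0.14, 87% of windows shared) and *A230004M16Rik* (−2.22 ± 0.080) followed. 4 of these 10 genes, *Gm26818*, *Rhox5*, *Klhl13* and *Usp26*, are on X. Of the 7668 genes outside the regions that averaged 10 cpm or more, 297 are on X, with a median of 0.091.

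**Figure D4:**
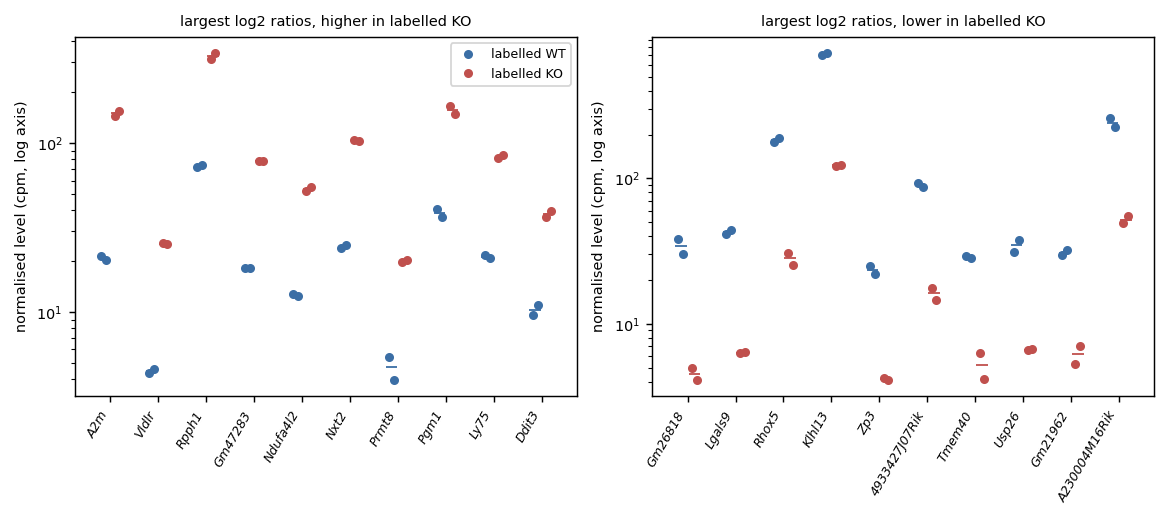
Normalised level (cpm, log axis) per library of the 10 genes with the largest rise and the 10 with the largest fall in labelled KO outside the excluded regions, with labelled WT in blue, labelled KO in red and a line at each mean. The 2 libraries of a label nearly coincide beside the gaps between labels, as for *A2m* and *Lgals9*.

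Markers were read to check the labelled cell type. All 14 ES cell markers were tested, with a summed level of 7288 and 7183 cpm in labelled WT and 8029 and 8205 cpm in labelled KO. Only 6 of 16 fibroblast and feeder markers passed the filter, *Col1a2*, *Col3a1*, *Dcn* and *Postn* were not among them, and the sum stayed between 7.86 and 9.08 cpm in all 4 libraries. Blood markers (4 of 16 tested) summed to 28.6 and 28.1 cpm in labelled WT and 41.8 and 38.4 cpm in labelled KO. Muscle markers (5 of 15) summed to 51.5 and 65.1 cpm in labelled WT and 39.2 and 37.2 cpm in labelled KO. Liver and visceral endoderm markers (5 of 14) summed to 21.2 and 21.0 cpm in labelled WT and 25.7 and 29.3 cpm in labelled KO, and in none of these 3 lists did the sums of the labels overlap. Neuron markers, many of which ES cells also express, summed to 810.0 and 785.5 cpm in labelled WT and 638.6 and 622.4 cpm in labelled KO. Myelin and astrocyte markers summed to between 230.3 and 270.0 cpm. A sum is weighted to its members of highest level. By member, 6 of 14 ES cell markers were higher and 6 lower, with a median of 0.089. Fibroblast and feeder markers had 0 of 6 higher and 1 lower, and myelin and astrocyte markers 2 of 11 higher and 1 lower. Of neuron markers 4 of 17 were higher and 4 lower, with a median of 0.21. Blood markers had 1 of 4 higher and 1 lower, muscle markers 2 of 5 higher and 3 lower, and liver markers 1 of 5 higher and 0 lower. The 4 Y-linked genes summed to 263.5 and 279.4 cpm in labelled WT against 68.6 and 67.8 cpm in labelled KO, and all 4 fell, with *Ddx3y* from 110.3 and 116 to 26.1 and 26.1 cpm. In bulk libraries, fewer cells with a Y chromosome and less RNA per cell cannot be told apart. The part of these differences, and of chromosome 1 and chromosome 8, in the pathway results was not tested beyond the counts without the 2 regions.

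Called genes differed in composition as well as in function. The median GC content of the transcripts was 47.0% for higher genes and 50.9% for lower genes, against 49.4% over all tested genes, and outside the regions it was 47.1% and 51.2%. The median length was 3070 bases over all tested genes, 2973 for lower genes and 3206.5 for higher genes. Whether GC content took part in the pathway results was not tested.

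The libraries of 100 cells gave the most similar comparison. They are separate libraries, with about 1 ng of RNA and 18 cycles of PCR, so cell number and cycles changed together. Of the genes called at 1000 cells, 78.1% had the same sign at 100 cells, and for 2538 of 15764 genes (16.1%) the ratio differed between the inputs in an interaction test (edgeR quasi-likelihood, Benjamini-Hochberg adjustment). The integrated stress response and glycolysis lists had medians of 0.99 and 0.71 at 100 cells, with 5 of 31 and 11 of 42 members differing. The nuclear oxidative phosphorylation list had a median of 0.042 at 100 cells, with 20 of 78 members differing, of which 19 were less positive at 100 cells. Ribosome biogenesis genes had a median of 0.0017, with 17 of 41 differing and 15 of those more positive at 100 cells. The interaction comes from a fit of all 8 libraries, so it differs slightly from the difference of the separately fitted ratios. *Ubtf* moved from −0.91 to 0.26 (interaction log2 1.20, adjusted p = 0.000747). *Meg3* moved from a fall to 0.69 (interaction log2 2.64, adjusted p = 2.43e-06). The p53 list had a median of −0.45 at 100 cells with 11 of 32 differing. Neuron markers had a median of 1.67 at 100 cells, against 0.21 at 1000 cells. Of these 17 markers 15 differed, all of them more positive at 100 cells. Their summed level at 100 cells was 738.6 and 811.4 cpm in labelled WT and 835.1 and 865.7 cpm in labelled KO.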

How the data were processed

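SMARTer RNA-seq was measured in 8 libraries of ES cells, of which the 4 libraries of 1000 cells carry the comparison. The 4 of 100 cells enter only the same contrast at 100 cells, the interaction test and the fit of all 8 libraries. The labels read control and experiment, which were read as WT and KO because the article describes the groups so. The authors deposited raw counts per gene, made by removing ribosomal RNA reads with Bowtie2 and aligning to mm10 with TopHat. Counting used htseq-count in union mode over GENCODE M4 without regard to strand, so sense and antisense reads cannot be told apart. By the study's methods, fragments that matched several genes or genomic places were dropped, so reads from sequence shared by overlapping genes may be missing. The submitters' processing notes name CASAVA 1.8.2, Bowtie2 2.1.0, TopHat2 2.0.10 and HTSeq 0.6.1.

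Genes that reached 10 counts in any of the 4 libraries were scaled by TMM and tested in R 4.3.3 with the quasi-likelihood test of edgeR 4.0.16, with Benjamini-Hochberg adjustment over all 15764 genes and a threshold of 0.05. The SE is the size of the log2 ratio divided by the square root of F. Total counts were 11752860 to 16686525, and PCR copies carry no molecular identifiers, so precision covers counting error and the spread between 2 libraries only. Deviations of same-numbered KO and WT libraries correlated weakly (0.148 over 8317 genes), and with 2 pairs and no shared batch in the labels, numbers were taken as names and not as pairs. Alternatives were DESeq2 1.42.0, limma-voom (limma 3.58.1), the exact test, other scalings, filters, thinning, a replicate block, a fit of all 8 libraries and leaving out each library. The scripts were checked on simulated data.

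The members and the 55 lists were chosen with earlier results of these data known. Named are *Zbtb24*, the 10 largest ratios in each direction (mean of at least 10 cpm, no overlap, outside the 2 regions), in each list up to 3 called members in each direction and members whose role defines it. Other genes were named after their values were seen. A few genes that the rule names are not reported here. Symbols and positions came from GENCODE M21, which matched 42425 of 43309 genes (98.0%), and 8 list symbols were respelled. Promoter windows and motifs came from RefSeq on GRCm38.p6. Shared exon sequence was measured in windows of 50 bases.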

Additional observations from a re-analysis of the deposited data

Results flagged for a closer look

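The results gathered here are genes of the text whose ratio of labelled KO to labelled WT differed between 100 and 1000 cells in the interaction test (edgeR quasi-likelihood test with Benjamini-Hochberg adjustment over 15764 genes). There were 73 among 230 named genes (31.7%), against 16.1% of all tested genes, and the named genes were chosen for large ratios at 1000 cells. Each value is the ratio at 100 cells minus the ratio at 1000 cells on the log2 scale, from a fit of all 8 libraries, and differs slightly from the difference of the separately fitted ratios. It was positive for 41 genes and negative for 32, and 22 genes called at 1000 cells had the other sign at 100 cells. Cell number and PCR cycles changed together, so their parts cannot be told apart.

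In the groups around ZBTB24 and chromatin, the difference was 2.64 for *Meg3*, −1.98 for *Rhox5*, 0.89 for *Dnmt3b*, 0.89 for *Mbd3*, 0.56 for *Dnmt1*, −0.47 for *Ostc*, −0.62 for *Dazl* and −0.93 for *Cd81*. The difference turned *Meg3* from lower at 1000 cells to higher in labelled KO at 100 cells. Among chromatin proteins it was 1.52 for *Chaf1a*, 0.46 for *Ehmt1*, 0.95 for *Epop*, 0.66 for *L3mbtl2*, 1.06 for *Chd4*, 0.55 for *Smarca4* and 1.22 for *Zfp428*.

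Pluripotency and signalling genes differed by 0.91 for *Pou5f1*, −0.49 for *Nanog*, −0.65 for *Esrrb*, −0.63 for *Tfcp2l1*, −0.40 for *Dppa4*, −0.56 for *Fgf4*, 0.78 for *Etv4* and −0.59 for *Klhl13*. The log2 ratio of *Pou5f1* was −0.40 at 1000 cells and 0.48 at 100 cells.

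For stress and amino acid genes the values were −0.52 for *Nupr1*, 0.99 for *Cbs*, 0.67 for *Ppp1r15a*, 0.59 for *Phgdh*, 0.65 for *Ahcy*, 1.11 for *Vars*, 0.59 for *Farsa*, 0.49 for *Hars*, 0.39 for *Calr*, 0.45 for *Hsph1*, −0.52 for *Mt1*, −0.39 for *Ifitm3*, −0.80 for *Irf1* and −0.46 for *Psmb10*. The synthetase gene *Vars* turned from lower to higher.

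Metabolic genes differed by −0.53 for *Slc2a1*, −0.49 for *Slc2a3*, −0.38 for *Hk2*, 0.64 for *Eno1*, 0.81 for *Pkm*, −0.66 for *Ndufa4l2*, −0.64 for *Ndufb11*, −0.48 for *Cox5b*, 0.49 for *Atp5d*, −0.48 for *Idh1*, −0.55 for *Ebp*, 1.15 for *Impdh1* and −0.41 for *Hprt*. Genes of ribosomes, translation and splicing gave 1.20 for *Ubtf*, 0.78 for *Fbl*, 0.59 for *Utp3*, 1.35 for *Rrp9*, 1.07 for *Bysl*, 0.83 for *Ncl*, −0.55 for *Rps26*, 0.93 for *Eif4g1*, 0.81 for *Snrnp70* and 0.60 for *Prpf31*.

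Cell cycle, death and surface genes gave 0.55 for *Mcm2*, −0.61 for *Pttg1*, 0.90 for *Cenpb*, 0.56 for *H2afx*, −0.55 for *Trp53*, −0.86 for *Perp*, 1.28 for *Bcl2l1* and 0.56 for *Fbln1*. Among the genes with the largest ratios at 1000 cells the difference was −0.48 for *A2m*, −0.79 for *Rpph1*, −0.72 for *Gm47283*, −0.82 for *Zp3* and 0.83 for *Gm21962*, which reduced or enlarged the ratio without turning it.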

How the results depend on the processing

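The 6941 called genes at 1000 cells (3522 higher, 3419 lower, 6195 outside the 2 regions) stayed within 1.5 times under every alternative other than the log2 limit, as did the higher, lower and outside counts. With a log2 ratio above 1 in size as well they became 1596, 695, 901 and 1401. DESeq2 called 4794 (2470 higher, 2324 lower) and the fit of all 8 libraries 5250. Leaving out 1 library gave 5451 to 6237 in all, 2831 to 3183 higher, 2620 to 3054 lower and 4805 to 5531 outside. A replicate block called 7459 (3785 higher, 3674 lower, 6682 outside), but the replicate numbers are shared only as numbers. The genes with an interaction (2538) were 2437 to 3373 under other scalings and no filter, and 1890 by DESeq2.

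Of 230 named genes 210 were called, and 200 of these stayed called in every alternative other than the log2 limit, which left 90. The called gene *Zscan4d* turned to 0.34 without WT replicate 2, the library that held 300 of its counts, which left 3 counts against 6 and 0. The remaining reversals were of uncalled genes near 0. With library size alone they were −0.083 for *Cdh1*, −0.018 for *Hif1a*, −0.012 for *Hspa5*, −0.067 for *Ncl*, −0.043 for *Rnf169* and −0.051 for *Tet2*. *Cdh1* was −0.0065 with no filter, −0.0082 with 10 counts in every library and −0.0089 after thinning, and *Mcm2* was 0.0094 with TMM factors without the regions. Over the fits that left out 1 library, the ranges were −0.061 to 0.026 for *Arid4b*, −0.073 to 0.084 for *Cdh1*, −0.16 to 0.049 for *Dazl*, −0.0057 to 0.15 for *Hif1a*, −0.014 to 0.17 for *Hspa5*, −0.18 to 0.10 for *Lifr*, −0.12 to 0.11 for *Mcm2*, −0.018 to 0.066 for *Ncl*, −0.025 to 0.31 for *Pkm* and −0.098 to 0.051 for *Uhrf1*. They were −0.022 to 0.11 for *Rnf169*, −0.073 to 0.016 for *Cox4i1* and −10.42 to 0.34 for *Zscan4d*. Called members of lists that moved by over 1.5 times, and are not given with their list, were with library size alone 13 lower and 3 higher for SWI/SNF and NuRD, 2 higher for histones, 4 higher for FGF and ERK, 2 higher for ribosome biogenesis, 6 lower for oxidative phosphorylation, 5 lower for the tricarboxylic acid cycle, 5 higher for cholesterol, 3 lower for matrix and 2 lower for trophoblast genes. By DESeq2 they were 5 higher for imprinted genes, 1 higher for *Rhox* genes, 3 higher for SWI/SNF and NuRD, 2 higher and 2 lower for histones, 1 higher for formative genes, 4 higher for FGF and ERK, 2 lower for Wnt targets, 2 higher for interferon response, 5 higher for apoptosis, 6 higher and 3 lower for cyclins, 2 lower for fatty acid, 9 higher for lysosome, 6 higher for matrix, 2 higher for keratin and 0 lower for Hox genes. Since the line behind each library was not given, the spread between lines could not be told apart from that between libraries.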
